A study of Mus musculus with 8 samples.

Results

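The genes described here are Sstr2 and 5 other genes of the same stretch of mouse chromosome 11, Slc39a11, Cog1, Kcnj2, Fam104a and Cdc42ep4, 6 of 17384 genes in the expression table. They were chosen by name from earlier results of these libraries, because Sstr2 was near off in cells without Eaf2 and genes beside it were lower too, so the difference between genotypes in these 6 genes is described and not tested. RNA was sequenced from CD3+ spleen cells that also stained for B220, sorted from Eaf2-/-Faslpr mice (4 libraries, titled EAF2Faslpr) and from Faslpr mice (4 libraries). Both groups carry the lpr mutation of the death receptor gene Fas, which leads to a build-up of T cells bearing the B220 form of CD45, whereas only the first lacks Eaf2, which encodes a partner of the ELL transcription elongation factors. The sources used here do not give strain, age, sex, the deleted part of Eaf2, or whether each library came from a separate animal. The p-values thus reflect only how these libraries vary, which may be technical.

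Sstr2 encodes a receptor for the peptide hormones somatostatin and cortistatin. It couples to inhibitory G proteins (Gi), which lower cyclic AMP made by adenylyl cyclases and open potassium channels, and receptors of this family are known on lymphocytes as well as on neurons and endocrine cells. The genes beside it work in unrelated processes. Slc39a11 encodes ZIP11, a zinc transporter of the ZIP importer family, and Cog1 a subunit of the conserved oligomeric Golgi (COG) complex, which tethers vesicles at the Golgi. Kcnj2 encodes Kir2.1, an inwardly rectifying potassium channel that helps to set the resting membrane potential. Fam104a encodes a small protein that in human cells binds the p97 ATPase, and Cdc42ep4 an effector of the GTPase CDC42 that binds septins.

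Along the chromosome, in the RefSeq and GENCODE M21 annotations of GRCm38, the order is Kcnj2, Slc39a11, Sstr2, Cog1, Fam104a and Cdc42ep4. Sstr2 lies wholly inside the span of Slc39a11 on the opposite strand, and the 2143 exonic bases of Sstr2 share 0 bases with the exons of Slc39a11. The long form of Slc39a11 starts inside the span of Cog1, with which its own span shares 911 bases, again with 0 exonic bases in common. Cog1 and Fam104a run toward each other and share 1116 exonic bases, 22.4% of the exonic bases of Cog1 and 42.6% of those of Fam104a. Because the sources used here do not give the strand setting of the authors' counting, reads from the exonic bases that Cog1 and Fam104a share cannot be told apart. Between Kcnj2 and Slc39a11, 17 annotated genes lie, 2 of them protein coding, and none of the 17 was among the genes tested.

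The promoter sequences are shown for the 3 genes with the largest differences, since these were lower together. They come from RefSeq on build GRCm38.p6, which is not the GRCm39 build of the expression data, and each window runs from 250 bases before the annotated start to 50 bases after it, 5′ to 3′ on the strand of the gene. Capitals mark matches, on either strand, to 7 short motifs: the cAMP response element TGACGTCA, the AP-1 site TGACTCA, the E-box CACGTG, the GC box GGGCGG, the CCAAT box CCAAT, the TATA box TATAAA and the RUNX site TGTGGT. Slc39a11 has a window for each of its annotated starts, and Sstr2 lies between the upstream and the downstream start.
Sstr2, plus strand, chr11:113619077-113619376: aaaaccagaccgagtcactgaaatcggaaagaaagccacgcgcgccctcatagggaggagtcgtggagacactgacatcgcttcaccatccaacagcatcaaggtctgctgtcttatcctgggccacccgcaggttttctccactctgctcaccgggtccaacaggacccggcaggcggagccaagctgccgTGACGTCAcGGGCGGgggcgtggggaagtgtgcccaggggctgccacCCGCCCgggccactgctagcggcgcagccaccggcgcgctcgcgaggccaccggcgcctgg
Slc39a11 upstream start, minus strand, chr11:113650043-113650342: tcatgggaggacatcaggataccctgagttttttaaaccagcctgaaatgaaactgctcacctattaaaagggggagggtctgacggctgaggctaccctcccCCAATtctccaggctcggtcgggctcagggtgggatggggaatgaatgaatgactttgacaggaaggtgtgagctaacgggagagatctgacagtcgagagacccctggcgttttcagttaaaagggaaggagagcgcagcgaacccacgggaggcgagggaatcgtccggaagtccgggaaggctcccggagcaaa
Slc39a11 downstream start, minus strand, chr11:113565766-113566065: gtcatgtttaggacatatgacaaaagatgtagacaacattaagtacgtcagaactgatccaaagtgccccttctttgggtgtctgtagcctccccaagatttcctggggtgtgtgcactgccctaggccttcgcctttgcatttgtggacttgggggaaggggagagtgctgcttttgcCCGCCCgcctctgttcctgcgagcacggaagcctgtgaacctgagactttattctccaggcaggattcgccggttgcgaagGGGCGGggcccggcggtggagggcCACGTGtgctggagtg
Kcnj2, plus strand, chr11:111065914-111066213: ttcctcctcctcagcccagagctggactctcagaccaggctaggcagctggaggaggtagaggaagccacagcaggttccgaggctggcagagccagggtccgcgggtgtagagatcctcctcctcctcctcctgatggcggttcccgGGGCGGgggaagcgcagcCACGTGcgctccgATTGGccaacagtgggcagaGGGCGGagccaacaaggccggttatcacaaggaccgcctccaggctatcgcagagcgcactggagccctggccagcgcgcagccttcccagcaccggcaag

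The Sstr2 window held a complete cAMP response element, the palindrome bound by CREB-family factors, with its first base at position −58 from the start site, followed by a GC box at position −49. Of 32851 promoter windows in the same RefSeq table, 1.79% held this element, whereas 35.7% held a GC box. Of the 9 windows of the 6 genes, only that of Sstr2 held the cAMP response element, and 5 held a GC box. The Slc39a11 upstream window held a CCAAT box (37.4% of all windows) and no GC box, its downstream window held 2 GC boxes and an E-box (7.15% of all windows), and the Kcnj2 window held 2 GC boxes, an E-box and a CCAAT box. No window of the 6 genes held the AP-1 site or the TATA box in these letters, which 5.20% and 13.6% of all windows held. G and C made up 66.3% of the Sstr2 window and 66.7% of the Kcnj2 window, against a median of 52.7% over all windows. The upstream and downstream Slc39a11 windows had 55.3% and 56.7%. Windows of the other genes had 62.3% (Cog1), 54.3% and 75.3% (Fam104a) and 63.3% and 63.0% (Cdc42ep4). A high share of G and C was thus not confined to the genes with the largest differences.

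Estimated reads totalled 15563675 to 18640405 per library. Levels are given in CPM, counts scaled to depth, on which scale 3 reads stood for between 0.161 and 0.193. In the check of the targeted gene, Eaf2 averaged 4.74 ± 1.05 CPM in Eaf2-/-Faslpr libraries, against 25.5 ± 4.50 CPM in Faslpr libraries (SD, n = 4 each; adjusted p = 2.9e-05 from the quasi-likelihood test of edgeR, adjusted over all genes by Benjamini and Hochberg's method, as is each adjusted p of a gene here unless named otherwise), and Fas averaged 64.2 ± 6.87 against 54.3 ± 9.82 CPM (adjusted p = 0.276, and 0.0415 without Faslpr replicate 4). The 8 T cell markers, Cd3e among them, summed to between 5274 and 5419 CPM in Eaf2-/-Faslpr and between 4807 and 5094 CPM in Faslpr libraries, with 0 of 8 past the threshold by edgeR (2 at an unadjusted p under 0.05, 1 by DESeq2). The most abundant of them, Ptprc, encodes CD45, which is not confined to T cells, and averaged 2312 ± 114 against 1989 ± 311 CPM. Cd3e averaged 557 ± 39.3 against 602 ± 52.9 CPM (SD, n = 4 each), so the sums do not measure the share of T cells. B cell markers were above 0 in all libraries and passed as higher in 11 of 12 members, with summed levels of 320 to 626 CPM in Eaf2-/-Faslpr, the highest in replicate 3, and of 63.4 to 131 CPM in Faslpr libraries. Summed macrophage markers (2 of 10 higher) reached 62.0 to 156 against 50.2 to 63.5 CPM, neutrophil markers (0 of 4 tested past the threshold by edgeR, 3 at an unadjusted p under 0.05, 1 by DESeq2) 12.2 to 93.4 against 11.8 to 16.7 CPM, plasma cell markers (1 of 6 lower) 687 to 846 against 857 to 975 CPM, and erythroid and platelet markers (1 of 3 tested higher) 29.6 to 45.9 against 17.6 to 30.2 CPM. The macrophage marker Csf1r (11.8 CPM) and the neutrophil marker S100a8 (24.9 CPM) were also highest in Eaf2-/-Faslpr replicate 3. So were the macrophage markers Lyz2, Cybb and Adgre1. Among Eaf2-/-Faslpr libraries, Vcam1 (8.74 CPM), C1qa (3.15 CPM), C1qb (2.76 CPM), C1qc (2.44 CPM) and Mrc1 (2.70 CPM) were instead highest in replicate 1. Cd68 (32.1 CPM) was highest in replicate 2 of that group, so macrophage markers did not single out replicate 3. In bulk RNA of sorted cells, fewer cells of a type and less RNA per cell cannot be told apart.

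Sstr2 had 1.61, 0.819, 0.220 and 0.497 CPM in Eaf2-/-Faslpr replicates 1 to 4, against 43.6, 32.2, 40.2 and 42.3 CPM in Faslpr replicates 1 to 4. Between 4 and 25 estimated reads remained per Eaf2-/-Faslpr library, where each Faslpr library had between 540 and 787. The groups did not overlap: the lowest Faslpr library stood 20.03-fold above the highest Eaf2-/-Faslpr library. Eaf2-/-Faslpr libraries averaged 0.786 ± 0.599 CPM and Faslpr libraries 39.6 ± 5.12 CPM (SD, n = 4 each). The log2 fold change of Eaf2-/-Faslpr over Faslpr was −5.68 (SE 0.34), so that 1.99% of the Faslpr level was left. Only 4 of the 12340 genes tested had a lower log2 fold change. Relative spread was wider where the gene was low, with a coefficient of variation of 76.3% in Eaf2-/-Faslpr and 12.9% in Faslpr libraries. The Eaf2-/-Faslpr library with the least Sstr2, replicate 3, was also that with the most B cell transcripts, whose part in the Sstr2 value was not tested.

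**Figure D1:**
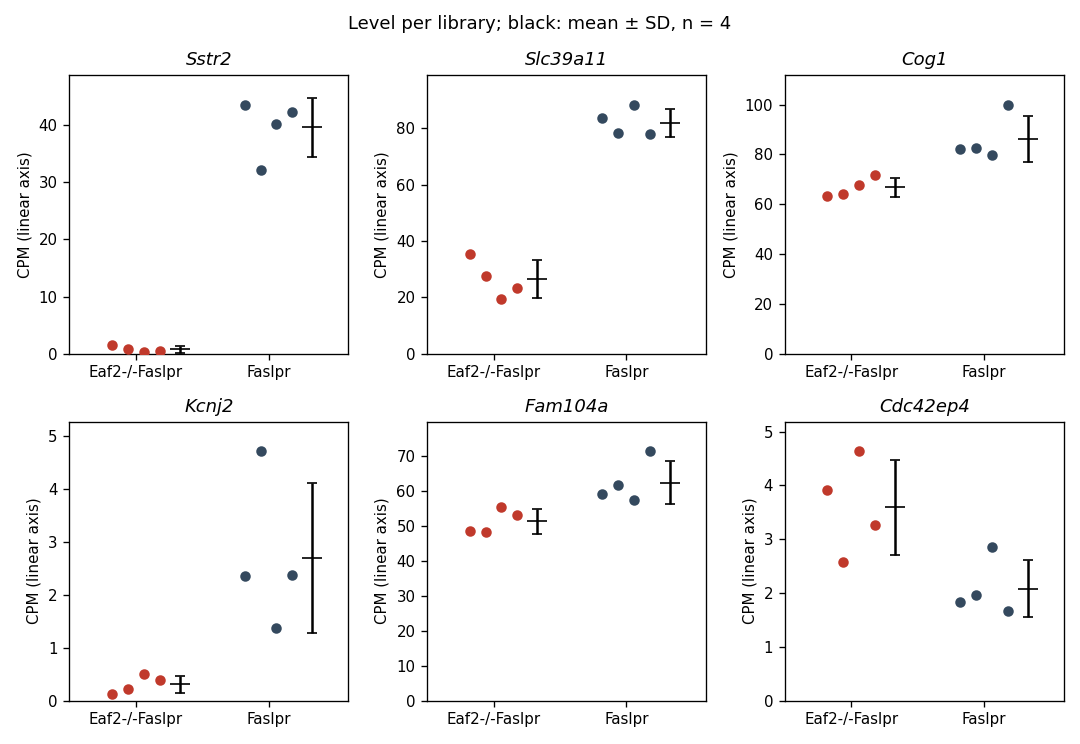
Level of each gene in CPM (linear axes starting at 0) in the 4 Eaf2-/-Faslpr and 4 Faslpr libraries, a point per library, with the mean ± SD in black. Sstr2 is at most 1.61 CPM in every Eaf2-/-Faslpr library and at least 32.2 CPM in every Faslpr library, 4 other genes are lower without overlap by smaller amounts, and Cdc42ep4 is higher on average with overlapping groups.

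Slc39a11, the gene whose span encloses Sstr2, had 35.5, 27.6, 19.5 and 23.4 CPM in Eaf2-/-Faslpr replicates 1 to 4, against 83.6, 78.2, 88.4 and 77.9 CPM in Faslpr replicates 1 to 4. Every Eaf2-/-Faslpr library was below every Faslpr library. Eaf2-/-Faslpr libraries averaged 26.5 ± 6.86 CPM and Faslpr libraries 82.0 ± 4.999 CPM (SD, n = 4 each), and the log2 fold change was −1.63 (SE 0.16), with 32.3% of the Faslpr level left. The difference was thus smaller than that of Sstr2. In TPM, the authors' transcript levels scaled to gene length and depth, Slc39a11 was 17.2 to 56.8 times as abundant as Sstr2 in Eaf2-/-Faslpr libraries and 1.43 to 1.88 times as abundant in Faslpr libraries. The sum of both genes, which does not depend on how reads are divided between them, came to 27.3 ± 7.45 CPM in Eaf2-/-Faslpr and 121.6 ± 8.32 CPM in Faslpr libraries (SD, n = 4 each), a log2 ratio of −2.16.

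Cog1, on the other side of Sstr2, had 63.3, 64.0, 67.7 and 71.9 CPM in Eaf2-/-Faslpr replicates 1 to 4, against 82.1, 82.7, 79.7 and 99.9 CPM in Faslpr replicates 1 to 4. The groups did not overlap, but the gap between them was narrow and Faslpr replicate 4 stood apart from its group. The log2 fold change was −0.37 (SE 0.09), and 77.5% of the Faslpr level was left. Fam104a had 48.3, 48.2, 55.4 and 52.9 CPM in Eaf2-/-Faslpr replicates 1 to 4, against 59.1, 61.5, 57.4 and 71.2 CPM in Faslpr replicates 1 to 4. These groups also did not overlap, with the lowest Faslpr library 1.04-fold above the highest Eaf2-/-Faslpr library, and the log2 fold change was −0.28 (SE 0.09). Since Cog1 and Fam104a share exonic bases, their differences may not rest on separate reads.

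Kcnj2, the channel gene on the far side of Slc39a11, was scarce in both groups. The promoter windows begin at base 111065914 for Kcnj2, 113619077 for Sstr2 and 113649279 for Cog1, so Kcnj2 lies much farther from Sstr2 than Cog1 does. Kcnj2 had 0.128, 0.218, 0.496 and 0.386 CPM in Eaf2-/-Faslpr replicates 1 to 4 (between 2.01 and 9.01 estimated reads), against 2.35, 4.71, 1.38 and 2.37 CPM in Faslpr replicates 1 to 4 (between 25.2 and 79.0 estimated reads). The groups did not overlap, and the log2 fold change was −3.08 (SE 0.48), with 11.4% of the Faslpr level left. Within the Faslpr group alone the level spanned from 1.38 to 4.71 CPM, so the size of the difference is less certain than that of Slc39a11. Kcnj16, the channel gene next to Kcnj2 on the side away from Sstr2, was at 0.672 ± 0.291 against 0.558 ± 0.262 CPM (SD, n = 4 each; adjusted p = 0.772). It had only 5.23 to 16.65 estimated reads per Eaf2-/-Faslpr library and 3.74 to 14.99 per Faslpr library. Its log2 fold change was 0.27 (SE 0.45), so a sizeable difference could be missed.

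Cdc42ep4 differed from the other 5 genes in direction. It had 3.92, 2.57, 4.63 and 3.26 CPM in Eaf2-/-Faslpr replicates 1 to 4, against 1.83, 1.97, 2.86 and 1.67 CPM in Faslpr replicates 1 to 4. The groups overlapped, because Faslpr replicate 3 was above Eaf2-/-Faslpr replicate 2. The log2 fold change was 0.78 (SE 0.25). In all, 5 of the 6 genes were lower and did not overlap between groups, where 7.96% of all genes tested did so (9.71% were higher without overlap, and 17.7% did not overlap in either direction), and 4 of the 6 had an adjusted p under 0.05, where 12.1% of all genes did (4.96% lower and 7.14% higher). Because the genes were picked on this comparison, nothing is read from these counts.

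Levels scaled to length were then put in order within each group. In Eaf2-/-Faslpr libraries Cog1 (45.8 ± 3.63 TPM) and Fam104a (45.4 ± 3.01 TPM) came first and overlapped, followed without overlap by Slc39a11 (22.2 ± 5.90 TPM), Cdc42ep4 (2.79 ± 0.667 TPM), Sstr2 (0.87 ± 0.63 TPM) and Kcnj2 (0.1325 ± 0.0714 TPM; all SD, n = 4). In Faslpr libraries Slc39a11 (69.2 ± 6.90 TPM) and Cog1 (61.9 ± 2.69 TPM) overlapped, Fam104a (55.1 ± 2.64 TPM) and Sstr2 (43.15 ± 5.62 TPM) followed without overlap, and Cdc42ep4 (1.63 ± 0.486 TPM) and Kcnj2 (1.135 ± 0.602 TPM) overlapped at the bottom (all SD, n = 4). Sstr2 thus stood above Cdc42ep4 with Eaf2 and below it without Eaf2.

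The genes in between and beyond were examined to see how far along the chromosome differences reached. D11Wsu47e and Cpsf4l, which lie between Fam104a and Cdc42ep4, did not pass the test. D11Wsu47e averaged 20.4 ± 1.83 against 21.2 ± 1.19 CPM (adjusted p = 0.763) and Cpsf4l 0.732 ± 0.162 against 0.772 ± 0.202 CPM (adjusted p = 0.903; SD, n = 4 each, Eaf2-/-Faslpr before Faslpr). Cpsf4l was scarce, and its log2 fold change of −0.08 had an SE of 0.31, so a moderate difference could be missed. Among the 15 tested genes before and the 15 after Sstr2, 25 were not among the 6 described genes, and of these 4 were lower and 2 higher in Eaf2-/-Faslpr cells, 24% of the 25. Over all genes tested 12.1% passed, and over the 993 other tested genes of chromosome 11 13.7% did. The median log2 fold change of the 25 was 0.05, against −0.01 over all genes tested. Whether 6 of 25 exceeds the background was not tested, and 1 of 11 (9.09%) passed with 8 genes on each side and 11 of 55 (20%) with 30. The same windows of 15 genes on each side held 1 lower and 4 higher genes of 30 around Enpp6 on chromosome 8, another gene near off without Eaf2, and 1 lower and 3 higher genes of 30 around Eaf2 itself on chromosome 16. These shares also moved with the width, from 16.7% at 15 genes to 25% at 8 and at 30 genes around Enpp6, and from 13.3% at 15 genes to 25% at 8 and 15% at 30 genes around Eaf2.

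The 4 lower genes of the window were Arsg, which encodes a lysosomal sulfatase, the peptidase gene Amz2, Fdxr, the ferredoxin reductase of mitochondria, and Rgs9, a regulator that speeds the shut-off of G proteins. Arsg had 2.57, 2.403, 2.98 and 2.81 CPM in Eaf2-/-Faslpr replicates 1 to 4, against 6.70, 8.76, 7.87 and 7.69 CPM in Faslpr replicates 1 to 4, with no overlap (log2 fold change −1.52, SE 0.16, adjusted p = 0.00025). Arsg fell furthest of these 4 genes, and it stands 7 tested genes away from Sstr2. Amz2 averaged 34.5 ± 1.37 against 47.5 ± 1.66 CPM (1.38-fold lower, adjusted p = 0.00173), and Fdxr 41.1 ± 0.984 against 58.9 ± 5.88 CPM (1.44-fold lower, adjusted p = 0.00254; SD, n = 4 each). Rgs9 averaged 762 ± 47.5 against 933 ± 75.0 CPM (1.22-fold lower, adjusted p = 0.0379), but passed in only 2 of the 8 fits that left out a library (adjusted p up to 0.114), and did not pass with the replicate number as a block (adjusted p = 0.0891).

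The 2 higher genes stood at the ends of the window. Cacng4, a gene of the calcium channel gamma subunit family, averaged 14.9 ± 2.15 against 7.15 ± 2.08 CPM (SD, n = 4 each; log2 fold change 1.06, adjusted p = 0.00788). Fads6, of the fatty acid desaturase family, averaged 1.04 ± 0.158 against 0.425 ± 0.130 CPM (2.44-fold higher, adjusted p = 0.0205). Fads6 missed the threshold without Eaf2-/-Faslpr replicate 2, Faslpr replicate 1 or Faslpr replicate 4 (adjusted p up to 0.0594). The differences around Sstr2 thus ran in both directions.

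**Figure D2:**
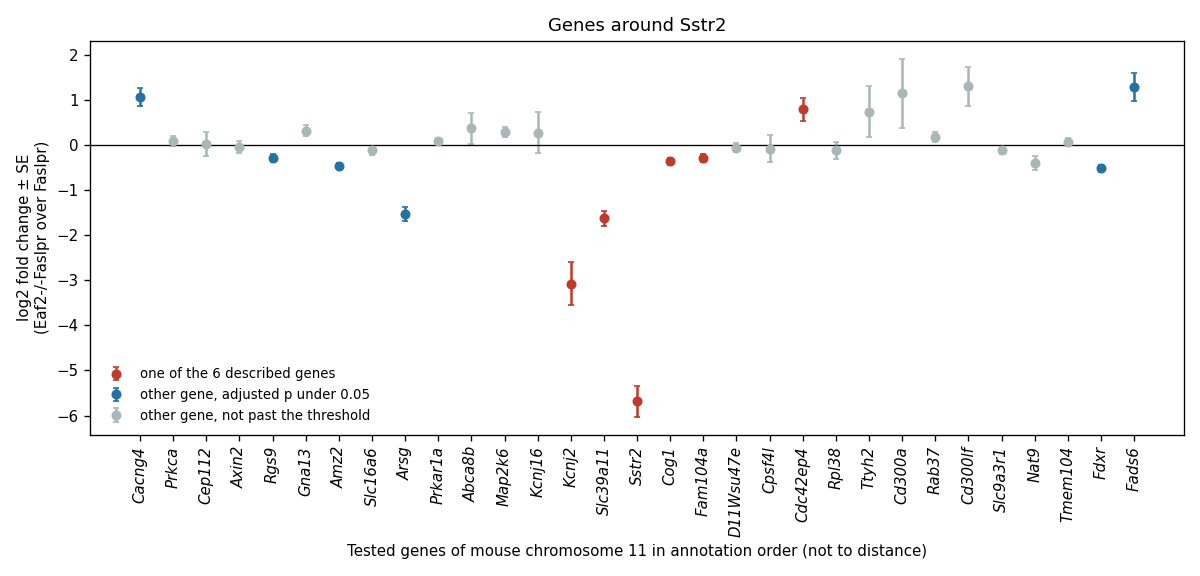
Log2 fold change (Eaf2-/-Faslpr over Faslpr) ± SE of Sstr2, the 15 tested genes before it and the 15 after it, in annotation order along chromosome 11 and not to distance. Red points are the 6 described genes, blue points other genes past an adjusted p of 0.05, and grey points the rest; Sstr2 at −5.68, Kcnj2 at −3.08 and Slc39a11 at −1.63 stand lowest, with Arsg at −1.52 next.

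The spread among replicates of the same genotype, which the choice of genes did not use, gave another view. Among Eaf2-/-Faslpr libraries, Slc39a11 and the residual Sstr2 ranked the 4 libraries in the same order, replicate 1 highest, then 2, 4 and 3. Summed B cell markers ran in the reverse order there, at 320, 328, 338 and 626 CPM in replicates 1, 2, 4 and 3. Among Faslpr libraries, Slc39a11 was highest in replicate 3, which had the most B cell transcripts of that group (131 CPM). The part of B cell transcripts in the relation was not tested. Over the 8 libraries, deviations from the genotype mean of log2(CPM + 0.5) correlated between Sstr2 and Slc39a11 with Pearson's r of 0.96 and Spearman's rho of 0.76 (exact two-sided permutation test over 576 arrangements within genotypes, p = 0.0278 and 0.148, and 0.0694 and 0.306 after Benjamini-Hochberg adjustment over 5 relations). Without the 2 libraries farthest from the median, Eaf2-/-Faslpr replicates 1 and 3, r was 0.67, so the relation rests largely on those libraries, which had 25 and 4 Sstr2 reads. It did not pass the correction.

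The other 4 genes did not follow Sstr2 within genotypes. Kcnj2 ran the opposite way (r = −0.61, rho = −0.74, exact permutation p = 0.0122 and 0.0625, adjusted p = 0.0608 and 0.306, and r = −0.69 without the same 2 libraries), with its highest level in the Faslpr library with the least Sstr2. Among Eaf2-/-Faslpr libraries Kcnj2 rose in the order of the B cell marker sums, whose part in this was not tested. Values of r were −0.25 for Cog1, −0.48 for Fam104a and −0.22 for Cdc42ep4 (rho = −0.45, −0.50 and −0.43; exact permutation p between 0.194 and 0.715 for r and between 0.201 and 0.356 for rho). Without the same 2 libraries these r were −0.08, −0.13 and −0.22. With 8 libraries, such values leave a wide range of true relations possible.

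**Figure D3:**
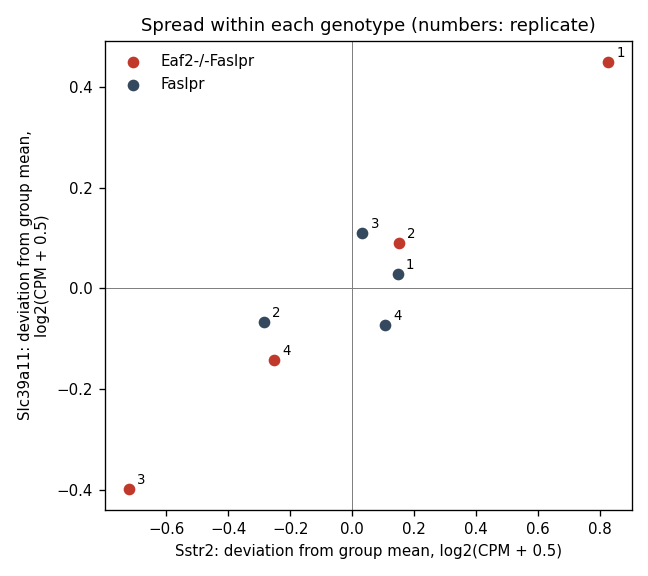
Deviation of each library from the mean of its genotype in log2(CPM + 0.5), Sstr2 on the horizontal and Slc39a11 on the vertical axis, with replicate numbers beside the points. The 4 Eaf2-/-Faslpr points lie along a rising line from replicate 3 at −0.72 for Sstr2 to replicate 1 at 0.83, while the Faslpr points stay between −0.28 and 0.15 for Sstr2.

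Over all 8 libraries, the genes most like Sstr2 were ranked by Pearson's r of log2(CPM + 0.5) among 9926 genes averaging at least 5 CPM. Slc39a11 ranked second (r = 0.993), between Hjurp, the chaperone of the centromeric histone CENP-A (r = 0.994), and Alg2, a mannosyltransferase of protein N-glycosylation (r = 0.992). Basp1, a membrane-bound signalling protein, and Enpp6, a choline phosphodiesterase, followed (r = 0.991 and 0.988). These 8 points share their libraries and fall into the 2 genotypes, so a high r here mostly restates a difference between genotypes, and it is given as a description with no p. Hjurp averaged 231 ± 20.7 against 459 ± 21.4 CPM, Alg2 25.2 ± 1.48 against 38.0 ± 1.10 CPM and Enpp6 1.48 ± 1.07 against 66.5 ± 14.0 CPM (SD, n = 4 each), and these 3 genes and Basp1 lie on other chromosomes. Cog1 ranked 479 (r = 0.83) and Fam104a 929 (r = 0.75), while Kcnj2 and Cdc42ep4 fell under the level required.

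The effective length of a gene, obtained from the ratio of its estimated reads to its FPKM (fragments scaled to gene length and depth), reflects which transcript forms the authors' quantification assigned the reads to. For Cog1 it was 3335, 3329, 3353 and 3277 bases in Eaf2-/-Faslpr replicates 1 to 4, against 3146, 3119, 3142 and 3215 bases in Faslpr replicates 1 to 4. Every Eaf2-/-Faslpr library was longer than every Faslpr library, by 5.32% on average (3323 ± 32.6 against 3155 ± 41.6 bases, SD, n = 4 each). Of 7813 genes with at least 5 FPKM and 100 reads in every library, 0.742% were longer by 3% or more without overlap and 1.55% differed so in either direction. The reads counted for Cog1 were thus assigned to its transcripts differently in the groups, which is a description of the same comparison that chose the gene. Cog1 shares 1116 exonic bases with Fam104a, and whether the assignment of reads from these bases bears on the length was not tested. Slc39a11 averaged 2723 ± 12.6 against 2703 ± 7.38 bases with overlapping groups, and Fam104a 2567 ± 1.02 against 2568 ± 1.25 bases (SD, n = 4 each). The other 3 genes had too few reads in some libraries for this ratio.

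**Figure D4:**
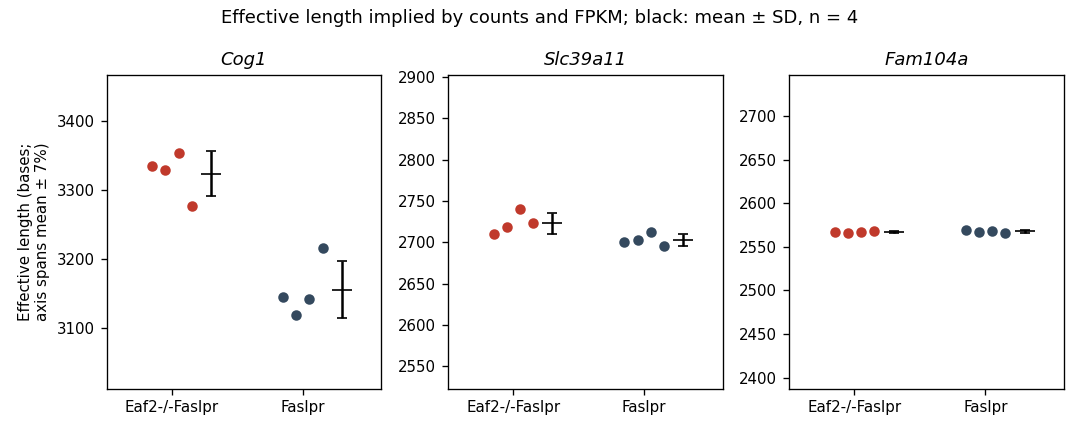
Effective length in bases of Cog1, Slc39a11 and Fam104a in each Eaf2-/-Faslpr and Faslpr library, with the mean ± SD in black, on axes that span 7% above and below each gene's mean and do not start at 0. Cog1 separates the groups (3277 to 3353 against 3119 to 3215 bases), Slc39a11 overlaps and Fam104a hardly varies.

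Of the 4 genes of the somatostatin system in the expression table, only Sstr2 was expressed well enough to be tested. The receptor genes Sstr3 and Sstr4 had at most 1 and 3 estimated reads in any library, and the ligand gene Cort, which encodes cortistatin, had 6 to 9.05 reads in Eaf2-/-Faslpr and 0 to 11 in Faslpr libraries. Sst, Sstr1 and Sstr5 had no entry in the expression table, so their levels are not known here. Downstream of Gi-coupled receptors, 1 of 10 tested G protein and adenylyl cyclase genes was higher and 0 lower, where 7.14% of all genes tested were higher and 4.96% lower, and the list median log2 fold change was −0.02. That gene was Adcy6, an adenylyl cyclase inhibited by Gi, at 6.97 ± 2.36 against 2.77 ± 0.547 CPM (SD, n = 4 each; 2.52-fold, adjusted p = 0.00989, and 0.0702 without both replicates numbered 4). The most abundant cyclase, Adcy7, was at 689 ± 48.3 against 754 ± 22.9 CPM (adjusted p = 0.293) and the Gi subunit Gnai2, named after its value was seen, at 576 ± 22.7 against 624 ± 36.01 CPM (adjusted p = 0.331).

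Of 9 genes that switch off such receptors or act with them, 3 were higher and 0 lower, where 7.14% of all genes tested were higher (list median log2 fold change 0.06, against −0.01 over all genes). Ptpn6, the tyrosine phosphatase SHP-1, which is known to associate with SSTR2, rose 2.15-fold (86.1 ± 12.04 against 40.1 ± 8.93 CPM, SD, n = 4 each, adjusted p = 0.00168) and passed with each of the 8 libraries left out. B cells also express Ptpn6, the B cell markers given above were higher in the same libraries, and their part in this difference was not tested. The receptor kinase genes Grk3 (2.69 ± 2.66 against 0.505 ± 0.234 CPM, adjusted p = 0.0441) and Grk5 (5.84 ± 0.565 against 3.67 ± 0.866 CPM, adjusted p = 0.0453) passed in only 1 of the 8 fits that left out a library (adjusted p up to 0.108 for Grk3 and 0.123 for Grk5), and without Eaf2-/-Faslpr replicate 3 the log2 fold change of Grk3 was 1.42, against 2.39 with it. That library had the most B cell transcripts (626 CPM), whose part in the Grk3 difference was not tested. Grk6, the most abundant of the list, was at 744 ± 11.2 against 833 ± 29.4 CPM (adjusted p = 0.113, and 0.00849 by DESeq2).

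Among inward rectifier genes, 4 of 14 in the table were tested. Apart from Kcnj2, none passed by edgeR or DESeq2 (1 of 3 at an unadjusted p under 0.05), and Kcnj12, which had the highest mean over the 8 libraries, was at 4.56 ± 1.78 against 1.41 ± 1.76 CPM (SD, n = 4 each; adjusted p = 0.141, and 0.00327 without Faslpr replicate 4, in which it stood at 4.03 CPM). The G protein-gated channels Kcnj3, Kcnj5, Kcnj6 and Kcnj9, through which SSTR2 acts in neurons, had at most 8.84 estimated reads in any library. Of 8 other channel genes known from T cells, 0 passed by edgeR or DESeq2 and 0 had an unadjusted p under 0.05, with Kcnn4, the calcium-gated potassium channel of T cells, at 313 ± 11.3 against 322 ± 18.2 CPM (adjusted p = 0.769).

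The protein families of the other neighbours showed few differences. Of 11 other tested ZIP importer genes, Slc39a6 was higher (16.5 ± 2.55 against 11.2 ± 1.48 CPM, SD, n = 4 each, adjusted p = 0.0298) and 0 were lower, and Slc39a6 missed the threshold when any of 5 single libraries was left out (adjusted p up to 0.0781). Slc39a7, the most abundant importer, was at 98.8 ± 6.63 against 92.7 ± 5.52 CPM (adjusted p = 0.493). Of 8 zinc exporter and zinc response genes, 0 passed by edgeR or DESeq2 and 0 had an unadjusted p under 0.05, with Slc30a7 at 74.9 ± 3.23 against 70.1 ± 10.1 CPM (adjusted p = 0.624). Of the 7 other COG subunits, 0 passed by edgeR or DESeq2 and 0 had an unadjusted p under 0.05, and Cog3 was at 116 ± 6.38 against 118 ± 3.64 CPM (adjusted p = 0.835). The list medians of the other members were 0.09 for importers, 0.05 for exporters and −0.003 for COG subunits on the log2 scale.

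Of 9 other tested genes for CDC42, its effectors and septins, Septin11 fell 1.74-fold (213 ± 23.2 against 371 ± 42.6 CPM, SD, n = 4 each, adjusted p = 0.00104) and 0 rose. Septin11 encodes a filament-forming GTPase, and it passed with each of the 8 libraries left out. Cdc42 itself was at 566 ± 4.72 against 585 ± 37.7 CPM (adjusted p = 0.716), and the effector Cdc42ep3, named after its value was seen, at 101 ± 23.0 against 124 ± 14.9 CPM (adjusted p = 0.290). Of 12 other genes of p97 and its cofactors, 0 passed by edgeR or DESeq2 and 0 had an unadjusted p under 0.05, and Vcp, which encodes p97, was at 595 ± 75.8 against 703 ± 80.6 CPM (adjusted p = 0.208). Across all these lists, 5 of 77 tested genes other than the 6 rose and 1 fell, 7.79% of the 77, against 12.1% of all genes tested. Among the other tested importers and inward rectifiers, the lowest log2 fold change was −1.02, of Slc39a2 (adjusted p = 0.110), named after its value was seen.

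**Figure D5:**
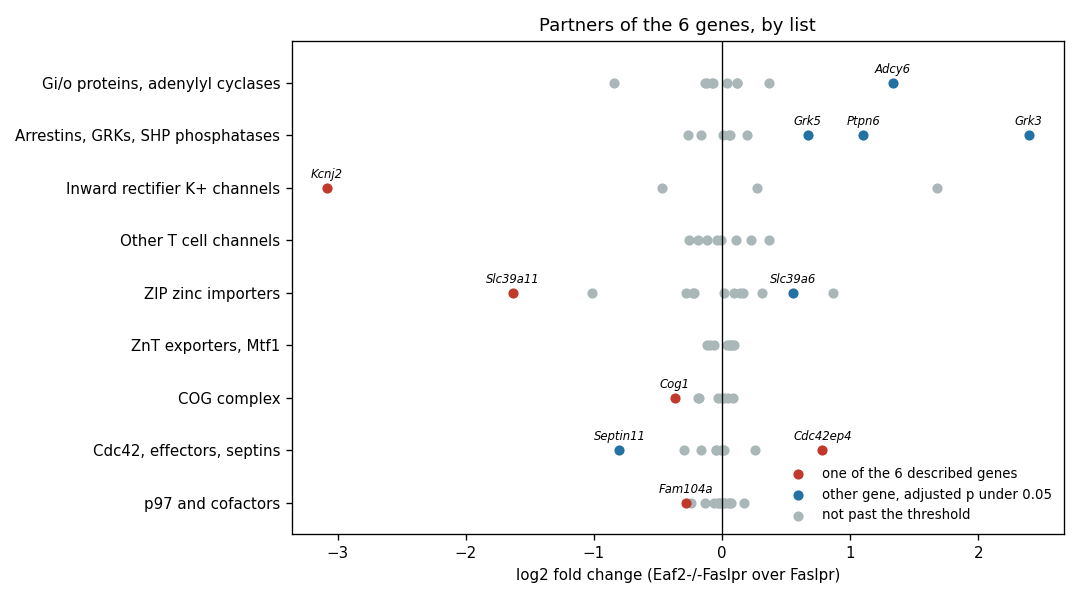
Log2 fold change (Eaf2-/-Faslpr over Faslpr) of each tested gene in 9 lists of partners or relatives, a point per gene. Red points are 5 of the described genes (Sstr2 is in none of these lists), blue points other genes past an adjusted p of 0.05 and grey points the rest; most points lie near 0, while Kcnj2 and Slc39a11 stand at the left of their lists and Grk3 at 2.39 at the right.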

How the data were processed

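RNA of sorted B220+CD3+ spleen cells was isolated in TRIzol and sequenced on DNBSEQ, per the labels' protocols. The titles gave each library's group and number, and that the libraries titled EAF2Faslpr come from Eaf2-/-Faslpr mice came from the series' design text. The deposited table gave, for 17384 genes, the authors' estimated counts (RSEM, not scaled to depth), FPKM and TPM values per library. The submitters' processing notes name RSEM 1.3.1, Bowtie2 2.4.5, HISAT2 2.2.1 and the GRCm39 build. The sources used here do not give annotation, filters or strand setting. Reads that fit more than 1 gene are shared out by RSEM's estimate, and 36.8% of the estimated counts were whole within 0.001. A further 8 per-sample columns and 16 columns of means were not used.

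Estimated counts were rounded, filtered with filterByExpr (12340 genes left), scaled with TMM factors and tested with edgeR's quasi-likelihood test (edgeR 4.0.16, R 4.3.3), over all 8 libraries with no covariate, at a Benjamini-Hochberg adjusted p under 0.05 over all genes. The script was tested on simulated data. CPM divide by the TMM-scaled reads of the tested genes, and counting intervals or floors cover counting error only. Standard errors are the absolute log2 fold change over the square root of F. Neighbours were ordered by the RefSeq table of GRCm38.p6, matched by Entrez number for 12250 of 12340 tested genes, and promoters came from RefSeq, GRCm38.p6. The effective length was scaled by the median ratio of each library. Alternatives were DESeq2 1.42.0, other size factors, no filter, a replicate block, each library left out, both replicates numbered 4 left out, other windows, FPKM, summed overlapping genes and another pseudocount.

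The members and lists were chosen with earlier results of these data known. Named were the 6 members, Eaf2 and Fas, genes past the threshold within 15 tested genes of Sstr2, up to 3 passing members and the most abundant member of each list, the 5 genes most like Sstr2, and the first and the most abundant cell type marker of each list, of which most are given here only in sums. Kcnj16, D11Wsu47e, Cpsf4l, Gnai2, Cdc42ep3 and the genes under the filter were named after their values were seen. The permutation tests within genotypes and the effective length were added after the data were seen.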

Additional observations from a re-analysis of the deposited data

Results flagged for a closer look

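Among 58 groups of 4 libraries checked for a library far from the others, 4 stood out, where chance gives about 1 in 20. Cog1 stood at 99.9 CPM in Faslpr replicate 4, while the other 3 Faslpr libraries held 79.7 to 82.7 CPM. Amz2 stood at 36.5 CPM in Eaf2-/-Faslpr replicate 3, while the rest of its group held 33.7 to 34.0 CPM. Grk5 stood at 4.95 CPM in Faslpr replicate 3, while the rest held 3.09 to 3.40 CPM. Kcnj12 stood at 4.03 CPM in Faslpr replicate 4, while the rest held 0.357 to 0.802 CPM.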

How the results depend on the processing

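The log2 fold changes of the 6 genes kept their sign in every fit, from −6.25 to −5.37 for Sstr2, −1.80 to −1.51 for Slc39a11, −3.40 to −2.68 for Kcnj2, −0.41 to −0.29 for Cog1, −0.32 to −0.21 for Fam104a and 0.63 to 0.98 for Cdc42ep4 when each library was left out in turn. Summing Sstr2 and Slc39a11 gave −2.16. Leaving out each library gave 372 to 659 lower genes against 612 (372 without Faslpr replicate 2), 1 to 2 higher neighbours against 2, and 2 to 4 higher list genes against 5 (2 without Eaf2-/-Faslpr replicates 1 or 3 or Faslpr replicate 2). Without both replicates numbered 4 there were 403 lower genes, 1 higher neighbour and 2 higher list genes. With 8 tested genes on each side, 0 neighbours were higher and 1 lower, and with 30 on each side 5 were higher and 6 lower. By DESeq2, 2 list genes were lower against 1. The correlation of Slc39a11 with Sstr2 was 0.87 with a pseudocount of 2 CPM and 0.876 to 0.984 with each library left out. The same ranges were −0.674 to −0.0376 for Cog1, −0.785 to −0.568 for Kcnj2, −0.882 to −0.244 for Fam104a and −0.679 to 0.286 for Cdc42ep4, whose sign depended on Eaf2-/-Faslpr replicate 3. Whether the replicate numbers pair the samples is not known. Same-numbered libraries correlated at between −0.0605 and 0.176 in their deviations, and differently numbered libraries at between −0.291 and 0.178. Such small values cannot decide the question. With the replicate number as a block, 854 genes were higher and 571 lower, and 3 neighbours were lower against 4. The causes of these changes were not tested. Depth limits Sstr2 and Kcnj2 in Eaf2-/-Faslpr libraries, with at most 25 and 9.01 reads.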
